A study of Mus musculus with 12 samples.

Results

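Matrix metalloproteinases (MMPs) and their tissue inhibitors (TIMPs) were examined for the acetylation of histone H3 at lysine 27 (H3K27ac) in 4T1 cells. The members were Mmp3, Mmp10, Mmp13, Mmp9, Mmp14, Mmp2, Timp2 and Timp3, which are 8 of the 22264 gene symbols in the authors' table. They were chosen by name, and the table assigned them 42 of its 126464 intervals, each to the nearest gene. Of these, 30 intervals had a mean of at least 10 scaled reads over the 12 libraries and were tested, and 12 were below it. All 8 genes were tested on the sum of their intervals. The genes Mmp3, Mmp10 and Mmp13 lie in one cluster on chromosome 9, and their 23 intervals were also summed as one locus.

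The study asked whether the supply of acetyl-CoA controls H3K27ac in metastatic breast cancer cells. 4T1 is a mouse mammary carcinoma line, labelled as wild type, and H3K27ac-bearing chromatin was immunoprecipitated and its DNA sequenced (ChIP-seq). Cells were treated for 48 h with vehicle, 5 mM acetate, 50 µM etomoxir, etomoxir + acetate, etomoxir + 50 µM SB204990, or all 3 compounds. Each of the 6 treatments had 2 libraries, called set 1 and set 2 here after the suffix of their names, whose meaning the labels do not give. Etomoxir blocks the carnitine palmitoyltransferase step that brings long-chain fatty acids into mitochondria, and SB204990 blocks ATP citrate lyase, which makes acetyl-CoA from citrate. No treatment held SB204990 without etomoxir. All values are scaled reads, which are the read counts in an interval multiplied by a factor that the authors took from human chromatin added to every sample. In such bulk chromatin, fewer cells with the mark and less mark per cell cannot be told apart.

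MMPs are zinc-dependent endopeptidases that cut proteins of the extracellular matrix, and they are known for their part in invasion and tissue remodelling. Most are secreted as inactive precursors, while the product of Mmp14 is anchored in the cell membrane and activates the precursor of the Mmp2 product together with TIMP2. TIMPs bind MMPs and block their active site. H3K27ac marks active promoters and enhancers.

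Reads in intervals ranged from 7179165 to 16676442 per library and the spike-in factors from 0.398 to 1. Each set had 1 library with a factor of exactly 1, and whether the sets were scaled separately is not stated. The etomoxir + SB204990 library of set 2 had the fewest reads, a factor of 1 and the fewest intervals at 0 (517, compared with 671 to 1336 in the others), so the main results of the members that rest on it are also given without it. The gene sums of the members rested on between 224 reads (Mmp10) and 7923 reads (Timp2) in a library. Of 10 markers of mammary epithelium and carcinoma, 8 had an interval and Krt18 and Krt7 had none. The summed level of the epithelial list was 7508 to 17944 scaled reads over the 12 libraries. The same sums were 306 to 779 for 4 fibroblast genes, 520 to 1426 for 4 endothelial genes and 426 to 1242 for 4 leukocyte genes with an interval.

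The promoters of 6 members were in RefSeq (GRCm38.p6), and 5 of them are shown because the intervals at these genes differed in whether they covered the gene start. Each sequence is the 250 bases before the RefSeq start, read 5′ to 3′ on the coding strand. Capitals mark matches on either strand, searched with the reverse complement as well, to the AP-1 motif TGAGTCA, the TATA box TATAAA or the GC box GGGCGG, which do not overlap each other in these windows apart from GC boxes placed side by side. The positions were chr9:7445572-7445821 for Mmp3, chr9:7502092-7502341 for Mmp10, chr9:7272264-7272513 for Mmp13, chr14:54431348-54431597 for Mmp14 and chr10:86300162-86300411 for Timp3, all on the plus strand.
Mmp3: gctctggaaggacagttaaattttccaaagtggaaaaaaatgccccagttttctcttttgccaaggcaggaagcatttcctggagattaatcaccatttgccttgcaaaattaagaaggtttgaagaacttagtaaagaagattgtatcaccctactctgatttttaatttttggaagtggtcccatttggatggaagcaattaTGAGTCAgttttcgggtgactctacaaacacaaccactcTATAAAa
Mmp10: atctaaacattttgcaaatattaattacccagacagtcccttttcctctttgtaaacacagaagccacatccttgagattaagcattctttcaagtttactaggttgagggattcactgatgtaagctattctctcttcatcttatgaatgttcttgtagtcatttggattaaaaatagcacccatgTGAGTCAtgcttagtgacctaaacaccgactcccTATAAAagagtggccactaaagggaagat
Mmp13: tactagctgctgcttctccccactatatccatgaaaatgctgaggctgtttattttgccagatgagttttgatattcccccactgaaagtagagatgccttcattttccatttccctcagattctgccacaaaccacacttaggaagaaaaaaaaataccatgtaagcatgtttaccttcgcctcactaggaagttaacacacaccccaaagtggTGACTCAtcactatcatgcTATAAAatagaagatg
Mmp14: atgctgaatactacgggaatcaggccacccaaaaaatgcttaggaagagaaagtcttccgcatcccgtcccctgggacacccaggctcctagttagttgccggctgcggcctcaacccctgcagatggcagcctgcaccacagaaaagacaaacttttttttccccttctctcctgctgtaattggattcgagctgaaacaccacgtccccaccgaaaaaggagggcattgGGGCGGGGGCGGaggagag
Timp3: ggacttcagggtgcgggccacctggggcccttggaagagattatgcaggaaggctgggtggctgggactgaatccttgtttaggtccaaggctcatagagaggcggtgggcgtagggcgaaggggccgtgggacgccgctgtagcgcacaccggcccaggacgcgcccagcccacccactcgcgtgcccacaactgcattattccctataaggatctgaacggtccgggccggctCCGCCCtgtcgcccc

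The 3 promoters of the Mmp3, Mmp10 and Mmp13 cluster each held 1 AP-1 match and 1 TATA box. The AP-1 match lay at bases -46 to -40 from the start in Mmp3, at -63 to -57 in Mmp10 and, on the other strand, at -35 to -29 in Mmp13. The promoters of Mmp14, Timp2 and Timp3 held neither, and instead held 2, 1 and 1 GC boxes. Over all 32851 promoter windows of the same length, 4.46% held the AP-1 letters, 12.4% the TATA box and 32.7% the GC box. The cluster promoters had a GC content of 37.2% to 40.4% and 1 CpG each, while those of Mmp14, Timp2 and Timp3 had 55.2% to 68% and 10 to 21 CpGs (median of all promoters 52.4% and 6). A match describes the letters in the window and not the binding of a factor. An H3K27ac interval covered the printed windows of Mmp3, Mmp10, Mmp13 and Mmp14, and none reached that of Timp3.

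Most intervals of the members were annotated outside promoters. Of the 42 intervals, the authors' annotation placed 19 in introns, 17 between genes, 3 at promoters, 2 in exons and 1 at a transcription end site. The layouts were 1 broad interval over the whole gene start region, many intervals within a cluster, and intervals that missed the gene start. Coordinates are given in mm10.

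The layouts of Mmp9, Mmp14 and Timp2 were alike in that each gene had a single broad interval. That of Mmp9, encoding gelatinase B, was chr2:164921821-164961924 (40104 bp) and covered the Mmp9 start as well as a start of the neighbouring gene Slc12a5. That of Mmp14, encoding the membrane-bound enzyme, was chr14:54423018-54451080 (28063 bp) and also held a start of Mrpl52. That of Timp2 was chr11:118315123-118381888 (66766 bp) and also held a start of Cep295nl. The reads of these intervals therefore cannot be divided between the member and its neighbour.

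At Mmp13, encoding collagenase 3, most of the signal lay upstream. The interval with the highest mean was chr9:7235928-7245673, between genes and 26841 bp from the start, and it held 43.3% of the summed signal of Mmp13. A second upstream interval, chr9:7256636-7265533, held 33.8%. The promoter interval, chr9:7270383-7273590, held 4.44% and had 14.4 scaled reads per kb (mean of 12 libraries), compared with 46.3 and 39.6 per kb in the 2 upstream intervals. In vehicle the promoter interval had 28 scaled reads in set 1 and 44.4 in set 2, while the strongest upstream interval had 379.5 and 389.

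At Mmp3, encoding stromelysin 1, the signal was divided between the promoter and the gene body. The promoter interval, chr9:7441808-7448476, held 36.4% and an intronic interval, chr9:7451402-7458268, held 43.2%. At Mmp10, encoding stromelysin 2, the promoter interval, chr9:7498317-7505031, was the strongest and held 61.5%. The share of the signal held by the interval over the start thus ranged from 4.44% to 61.5% within this cluster.

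The starts of Timp3 and Mmp2 in GENCODE were not covered by any interval of the table. Timp3, whose product binds to the extracellular matrix, had 14 intervals, and all of them overlapped the gene Syn3, in whose body Timp3 lies. The strongest, chr10:86284128-86291669, held 30.1% and ended 8703 bp before the start, and the nearest, chr10:86295552-86296288, was 4084 bp away. At Mmp2, encoding gelatinase A, the interval chr8:92843521-92850735 held 92% of the signal. It lay in an intron 16230 bp from the gene start and contained the start of another annotated Mmp2 transcript. The Mmp2 interval nearest to the gene start, chr8:92810274-92812730, lay between genes at 14561 bp and held 8.02%. It had 15.1 to 52.8 scaled reads over the 12 libraries.

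**Figure D1:**
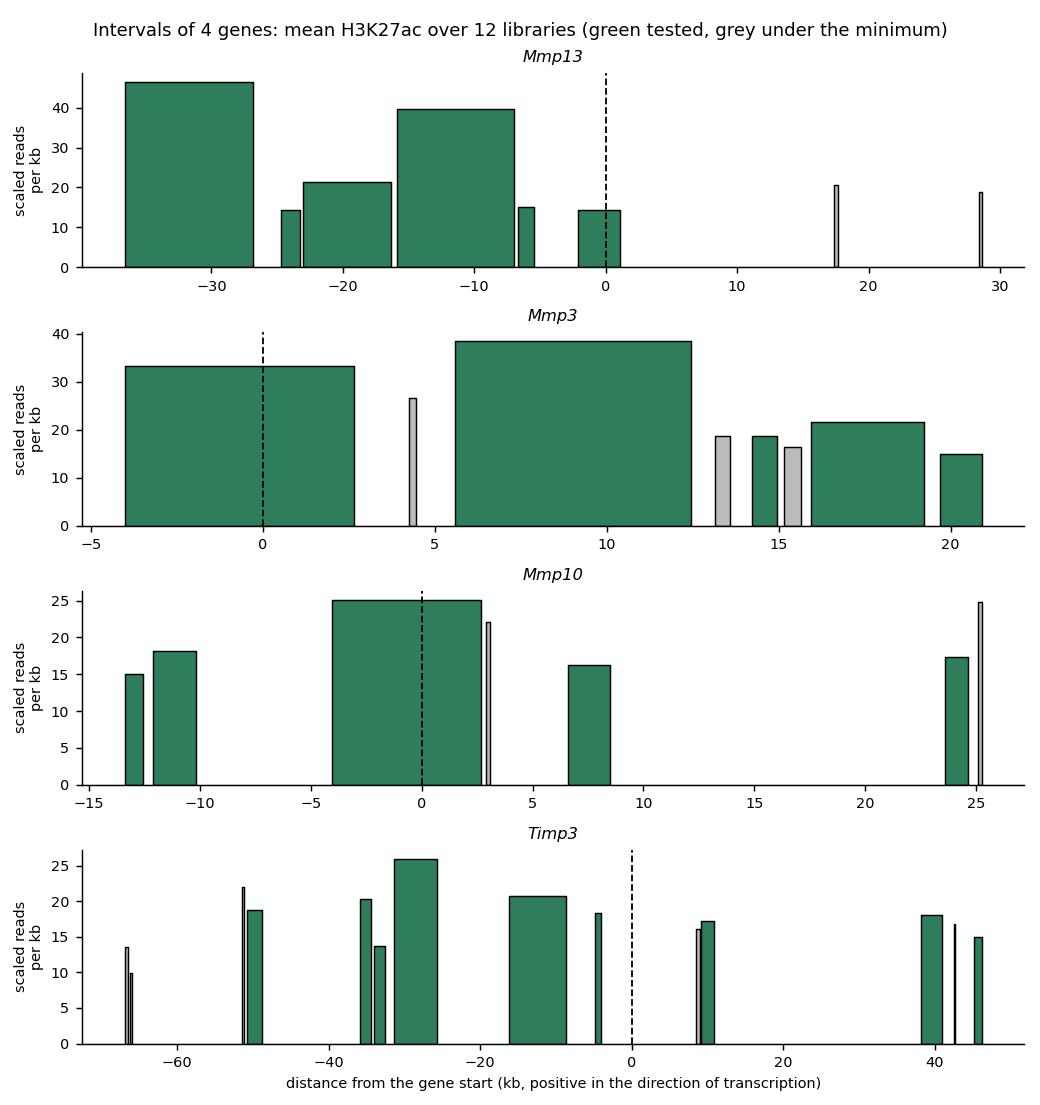
Intervals of Mmp13, Mmp3, Mmp10 and Timp3, drawn to scale by their distance from the gene start (x axis, kb) with their mean level over the 12 libraries (y axis, scaled reads per kb). At Mmp13 the tall boxes lie upstream and the box over the start is at 14.4 per kb, while at Timp3 no box touches the dashed line at the start.

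Per length, the level of the members in vehicle-treated cells spanned a range of 15.5 to 56.7 scaled reads per kb of interval. Mmp14 had 56.7 ± 3.92 (SD, n = 2) and Timp2 had 51.3 ± 5.22, with set values of 59.5 and 53.9 for Mmp14 and 47.6 and 55.0 for Timp2, so the libraries of these neighbours overlapped. Next came Mmp2 with 32.6 ± 0.163 and Mmp9 with 31.6 ± 1.36, which also overlapped. Mmp13 had 27.2 ± 2.22 and Mmp3 25.1 ± 2.02, again with overlap. Mmp10 had 15.7 ± 2.34 and Timp3 15.5 ± 3.27, close to the median of 16.4 over all symbols. With the strongest interval alone, the level was 41.1 for Mmp2, 39.4 for Mmp13, 31.5 for Mmp3 and 17.7 for Mmp10. The order of Mmp13 and Mmp9 was then exchanged.

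To see how H3K27ac of the Mmp3, Mmp10 and Mmp13 locus responded to acetate, its 23 intervals were summed in each library. They lay within chr9:7235928-7527601 (291674 bp), a span that also held 3 intervals of Mmp12 and 4 of Mmp1b. Without acetate the locus had 1466 (set 1) and 1665 (set 2) scaled reads in vehicle, 1722 and 1784 in etomoxir, and 1085 and 1566 in etomoxir + SB204990. With acetate it had 2228 and 2074, 2854 and 2689.98, and 1680.4 and 2307 in the same order. Each acetate library was higher than its counterpart of the same set, in 6 of 6 pairs, by 1.25 to 1.66-fold. The groups with and without acetate did not overlap within any of the 3 inhibitor backgrounds. The share of all symbols with this separation was not counted. In the average over backgrounds, limma called 88.2% of all genes higher with acetate.

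Averaged over the backgrounds the locus was 0.57 higher on the log2 scale with acetate (0.46 without inhibitor, 0.66 with etomoxir, 0.60 with both inhibitors; exact two-sided permutation test within backgrounds, p = 0.00926, the smallest this design can give). The median change over all 19458 tested symbols was 0.63, which is above that of the locus. When the libraries were scaled instead so that most genes stayed level (median-of-ratios scaling), the locus changed by -0.08 (exact permutation p = 0.241). When each library was first brought to an equal read total and then multiplied by its factor (depth-adjusted spike-in scaling), the change was 0.37 (exact permutation p = 0.213). Leaving out single libraries gave 0.48 (without the etomoxir + SB204990 library of set 1, exact permutation p = 0.0185) to 0.66 (without that of set 2, exact permutation p = 0.00926).

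Within the locus, Mmp3 had 472 and 528 scaled reads in vehicle, 671 and 650.4 with acetate, 542 and 576 with etomoxir, and 868 and 830.4 with etomoxir + acetate. Mmp13 had 815 and 914, 1253 and 1150.1, 937 and 987, and 1534 and 1475 in the same order. Mmp10, the lowest of the 3, had 179 and 222, 304 and 274, 244 and 222, and 452 and 385. In both sets, and for each of these genes, the etomoxir + acetate libraries were the highest of the 12. With etomoxir + SB204990 the set 1 library was the lowest of the 12 for each gene, at 363 for Mmp3, 552 for Mmp13 and 169 for Mmp10, while the set 2 library had 540, 802 and 224. Adding acetate to both inhibitors gave 552 and 738 for Mmp3, 873 and 1217 for Mmp13, and 256 and 352 for Mmp10.

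**Figure D2:**
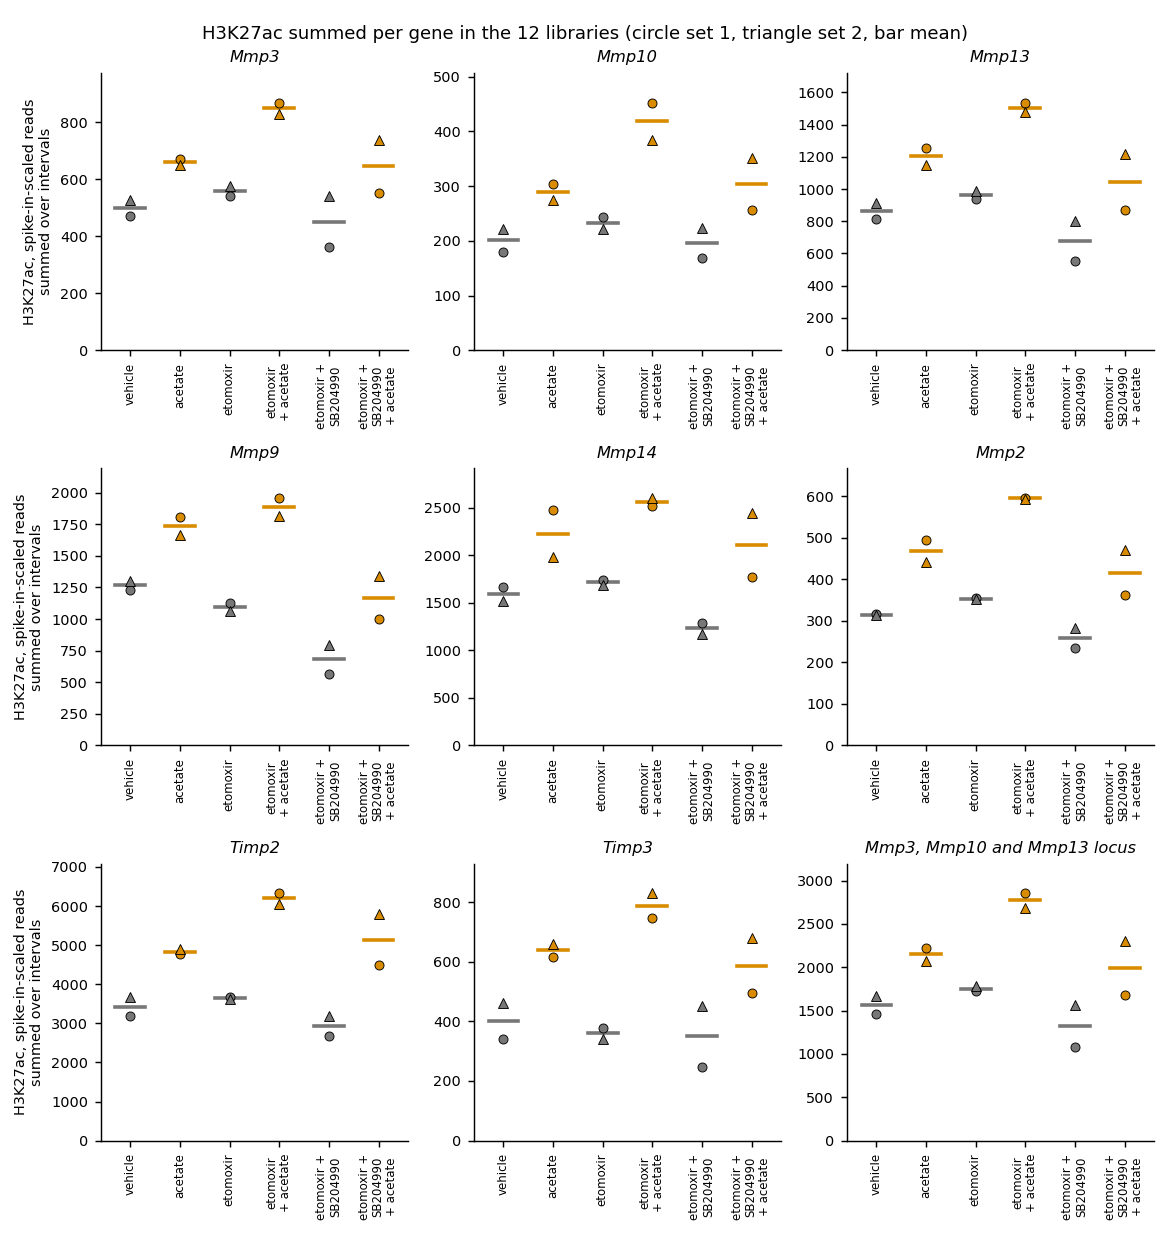
H3K27ac of each member and of the locus in the 12 libraries, as spike-in-scaled reads summed over the intervals of the gene (y axis, from 0) by treatment (x axis); circles are set 1, triangles set 2 and bars the mean, with acetate in orange. In each panel the libraries with acetate lie above those without it in the same inhibitor background, and the 2 libraries of etomoxir + SB204990 are further apart than those of etomoxir. How many of all genes show these patterns was not counted.

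Mmp14 and Mmp2 had the same order of treatment means as the locus. Mmp14 had 1669 and 1513 scaled reads in vehicle, 2476 and 1976 with acetate, 1744 and 1686 with etomoxir, 2521 and 2599.7 with etomoxir + acetate, 1290.4 and 1169 with etomoxir + SB204990, and 1769 and 2447 with all 3 compounds. Mmp2, whose product cuts denatured collagens and is activated by that of Mmp14, had 316 and 314, 495 and 442, 354 and 352, 596 and 594, 234 and 282, and 362 and 470.1. For both genes the libraries of etomoxir + SB204990 were the lowest pair and those of etomoxir + acetate the highest.

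The inhibitor genes were also higher with acetate. Timp2 had 3181 and 3674 scaled reads in vehicle, 4783 and 4889 with acetate, 3684 and 3628 with etomoxir, 6326 and 6063 with etomoxir + acetate, 2686 and 3187 with etomoxir + SB204990, and 4491 and 5791 with all 3 compounds. Timp3 had 342 and 461, 618 and 659.9, 377 and 342, 745 and 829, 248 and 451, and 495 and 678. In Timp3 the etomoxir libraries lay within the range of the vehicle libraries, and of those of etomoxir + SB204990 the set 1 library was the lowest of the 12 and the set 2 library lay within that range too.

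Acetate was associated with higher H3K27ac at all 8 members. Averaged over the 3 backgrounds, 8 of 8 genes were called higher (limma, Benjamini-Hochberg adjusted p under 0.05), and so were 88.2% of all 19458 genes tested, so the count does not set the members apart. The log2 fold changes ran from 0.51 ± 0.12 (SE) for Mmp3 to 0.87 ± 0.14 for Timp3, with a median of 0.67 over the members and 0.63 over all genes. Mmp13 was at 0.58, Mmp14 at 0.61, Mmp10 at 0.66, Mmp2 at 0.67, Mmp9 at 0.68 and Timp2 at 0.69. Between the sets the values differed, at 0.60 and 0.43 for Mmp3 and 0.94 and 0.79 for Timp3 in set 1 and set 2. Mmp14, at 0.52 and 0.69, was the only member higher in set 2. In single backgrounds some members differed more between the sets. With both inhibitors Mmp14 was at 0.45 and 1.07, and without inhibitor Mmp10 was at 0.76 and 0.30. Timp3 was at the 95.6th percentile of all genes and Mmp3 at the 17.4th. Without the etomoxir + SB204990 library of set 2 the changes ran from 0.58 (Mmp14) to 1.01 (Timp3), with an all-gene median of 0.73.

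Within single backgrounds, acetate added to etomoxir gave 8 of 8 genes higher, compared with 78.2% of all genes, and the changes ran from 0.58 (Mmp14) to 1.13 (Timp3). Without the etomoxir + acetate library of set 1 this count was 4 (28.8% of all genes). Acetate added to both inhibitors also gave 8 of 8, compared with 57.7% of all genes, from 0.53 (Mmp3) to 0.80 (Timp2). That count rested on single libraries, since it was 3 without the etomoxir + SB204990 library of set 1 (19.1% of all genes called higher and 4.2% lower), 0 without the library with all 3 compounds of set 2 (0% of all genes), and 8 without the etomoxir + SB204990 library of set 2 (91.4%). For acetate vs. vehicle, where no inhibitor was present, 0 of 8 members and 0% of all genes passed limma's adjusted threshold. There the changes were 0.40 (Mmp3) to 0.68 (Timp3), and edgeR also called 0. An unadjusted limma p under 0.05 was found for 7 of 8 members and for 8341 of all 19458 genes. Without the etomoxir + SB204990 library of set 1 or set 2, 8 members were called, as were 61.1% and 61.2% of all genes, and without either library with all 3 compounds 3 members were called, as were 11.9% of all genes. The acetate change with inhibitor minus that without it (interaction) was called for no member by limma or edgeR (0% of all genes for etomoxir and 0% for both inhibitors, and 0 members at an unadjusted p under 0.05 for either).

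None of these calls held under the other scalings. With median-of-ratios scaling 5 of 8 members turned negative in acetate vs. vehicle (-0.10 to 0.18), 7 of 8 with acetate added to etomoxir (-0.27 to 0.28) and 1 of 8 with acetate added to both inhibitors (-0.10 to 0.18). In the average acetate effect 0 of 8 genes passed with that scaling and Mmp3, Mmp13 and Mmp14 changed sign, while the all-gene median went from 0.63 to -0.02. The member with the largest remaining change was Timp3, at 0.21 (adjusted p = 0.419). With depth-adjusted spike-in scaling, 0 of 8 genes passed as well, and the all-gene median was 0.43.

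**Figure D3:**
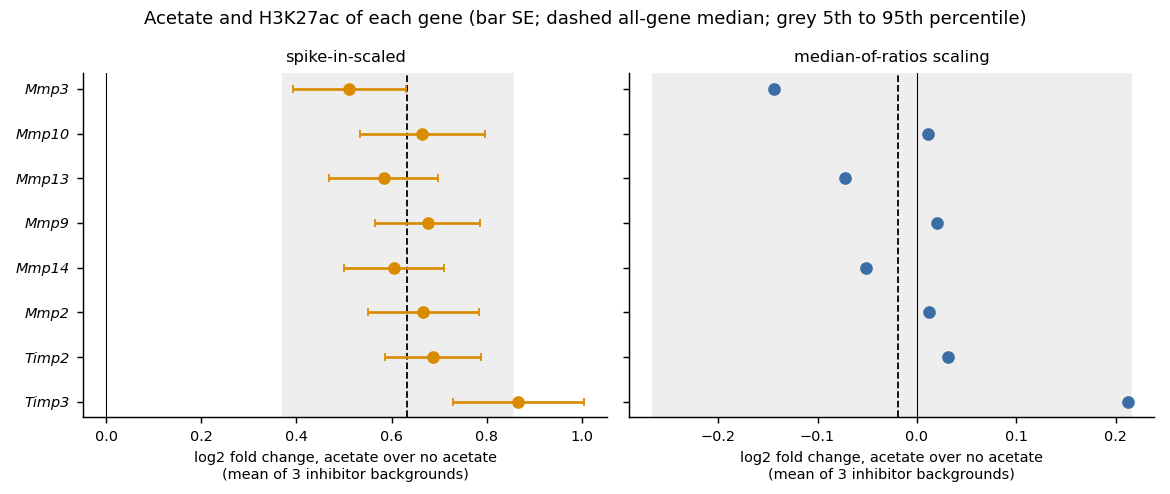
Log2 fold change of each member with acetate, averaged over the 3 inhibitor backgrounds (x axis), with spike-in scaling (left, bars are SE) and with median-of-ratios scaling (right); the dashed line is the median of all genes and grey their 5th to 95th percentile. On the left all 8 members lie between 0.51 and 0.87 around the all-gene median of 0.63, and on the right they lie around 0 with Timp3 at 0.21.

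The acetate change was also tested in single intervals. In the average over backgrounds 23 of 30 tested intervals were called higher, compared with 77.2% of all intervals. The corresponding counts were 19 of 30 with etomoxir (56.4% of all intervals) and 11 of 30 with both inhibitors (27.4%). None of these member calls held with either of the other scalings. Leaving out any of the 4 libraries compared lowered the count with etomoxir to between 5 and 9, while 8.05% to 27% of all intervals were called. The count with both inhibitors was 3 without the etomoxir + SB204990 library of set 1 (8.28% of all intervals) and without the library with all 3 compounds of set 2 (3.31%), and 23 without the etomoxir + SB204990 library of set 2 (71.6%). For acetate vs. vehicle 0 intervals were called by limma or edgeR. An unadjusted limma p under 0.05 was found in 16 of 30, and in 16905 of all 63903 intervals. The number called was 14 without the etomoxir + SB204990 library of set 1 or of set 2 (21% and 21.2% of all intervals) and 6 without the library with all 3 compounds of set 1 or of set 2 (8.98% and 8.99%). The Mmp13 upstream interval at chr9:7235928-7245673 changed by 0.53 ± 0.11 (adjusted p = 1.3e-05) and the Mmp13 promoter interval by 0.66 ± 0.20 (adjusted p = 0.0023). At Mmp3 the promoter interval changed by 0.59 ± 0.13 and the intronic interval by 0.48 ± 0.12. The Mmp10 promoter interval changed by 0.69 ± 0.13 and the intronic Mmp2 interval by 0.66 ± 0.12.

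In the average over backgrounds, the largest interval changes among the members were at Timp3. Its strongest interval, chr10:86284128-86291669, had 108 and 125 scaled reads in vehicle, 194 and 209 with acetate, 109 and 99.6 with etomoxir, 222 and 254 with etomoxir + acetate, 71.3 and 122 with etomoxir + SB204990, and 153 and 213 with all 3 compounds. All 6 acetate libraries were above all 6 libraries without acetate. How many of all intervals have this separation was not counted, and 77.2% of them were called higher in this average. The change was 0.97 ± 0.14 (limma, adjusted p = 1.2e-10), which became 0.32 with median-of-ratios scaling. The interval nearest to the Timp3 start was low, with 5.58 to 26.7 scaled reads over the 12 libraries, and changed by 0.90 ± 0.30 (limma, adjusted p = 0.0061).

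Next, the inhibitors were compared without acetate. Etomoxir vs. vehicle gave 0 of 8 member genes called (0.0154% of all genes, in either direction), with changes from -0.21 (Mmp9) to 0.22 (Mmp10) and 0 members at an unadjusted p under 0.05. edgeR called 0 members as well. These values moved with single libraries, and that of Mmp10 was 0.07 when the set 1 vehicle library was left out and 0.37 when its set 2 counterpart was. The direction for 5 of the 6 members with a positive value turned with median-of-ratios scaling, where the all-gene median moved from 0.14 to -0.02.

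Etomoxir + SB204990 vs. vehicle also gave 0 of 8 genes called (0.00514% of all genes, in either direction), and 0 were called by edgeR. An unadjusted limma p under 0.05 was found for 1 member and for 825 of all 19458 genes. Apart from Mmp9, the changes were -0.04 (Mmp10), -0.17 (Mmp3), -0.22 (Timp2), -0.25 (Timp3), -0.29 (Mmp2), -0.37 (Mmp14) and -0.37 (Mmp13), compared with an all-gene median of -0.18. The result depended on the library of set 2. Without it, Mmp9, Mmp13 and Timp3 were called lower, at -1.16, -0.64 and -0.68, and 12.3% of all genes were called lower. Without the library of set 1, Mmp9 alone was called, at -0.67 (adjusted p = 0.024), and Mmp3, Mmp10 and Timp3 turned to 0.11, 0.17 and 0.18, while 5.47% of all genes were called higher and 0.139% lower. Mmp13, Mmp2 and Timp2 were at -0.64, -0.43 and -0.35 without the set 2 library and at -0.11, -0.16 and -0.10 without that of set 1. Etomoxir + SB204990 vs. etomoxir gave 0 of 8 genes (0% of all genes), and 0 were called by edgeR. There 4 members had an unadjusted limma p under 0.05, as did 4087 of all 19458 genes. Without the set 2 library, 5 members were called lower (Mmp13, Mmp2, Mmp3, Mmp9 and Timp3), as were 63.8% of all genes. With depth-adjusted spike-in scaling 6 of the 8 members were positive in this comparison, up to 0.39 for Timp3, and the all-gene median went from -0.33 to 0.16.

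Of the 8 members, Mmp9 had the most negative change from vehicle in cells with both inhibitors. Its product, gelatinase B, cuts denatured collagens and collagen of the basement membrane. The Mmp9 interval had 1227 and 1304 scaled reads in vehicle, 1124 and 1061 with etomoxir, and 567 and 793 with etomoxir + SB204990. The 2 libraries of etomoxir + SB204990 were the lowest of all 12. With acetate it had 1805 and 1666, 1957 and 1817 with etomoxir, and 997 and 1342 with both inhibitors. Of the 6 acetate libraries, the 2 with both inhibitors were the lowest, and 1 of them lay below both vehicle libraries.

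Etomoxir + SB204990 vs. vehicle changed Mmp9 by -0.91 ± 0.18 (0.531-fold), with -1.11 in set 1 and -0.72 in set 2. In the fit over single intervals it was called lower (limma, adjusted p = 0.0012), 1 of the 14 intervals so called (0.0219% of all intervals), and edgeR gave -0.90 (adjusted p = 0.003). In the fit over gene sums the same values did not pass (adjusted p = 0.28), although the change was at the 0.0822th percentile of all genes. In the interval fit the call was lost without the vehicle library of set 1 (-0.96, adjusted p = 0.32), without that of set 2 (-0.87, adjusted p = 0.25) and without the etomoxir + SB204990 library of set 1 (-0.67, adjusted p = 0.093). It was also lost with median-of-ratios scaling (-0.79, adjusted p = 0.207), with depth-adjusted spike-in scaling (-0.64, adjusted p = 1) and without limma's intensity trend. Its direction was negative under all of these, and the interval also holds a start of Slc12a5.

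The order of the treatments at Mmp9 was clearest in the share of reads, which uses no spike-in factor. Per 1000000 reads in intervals, Mmp9 received 179.8 and 169.9 in vehicle and 179.3 and 167 with acetate. It received 140.2 and 135 with etomoxir and 143 and 141 with etomoxir + acetate. It received 106 and 110.5 with etomoxir + SB204990 and 116 and 119 with all 3 compounds. The 4 libraries without inhibitor were thus above the 4 with etomoxir, and these above the 4 with both inhibitors, with no overlap.

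Mmp9 was the only one of the 8 members with this order, which was looked for after its values were seen. It was shared by 37 of 19458 symbols (0.19%), and 36 symbols had the opposite order. The share does not show whether the amount of H3K27ac at Mmp9 fell, since it depends on all other intervals of the library. The locus of Mmp3, Mmp10 and Mmp13 received 200.2 to 221 reads on this scale as group means and did not have this order, since the libraries without inhibitor and those with etomoxir overlapped.

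**Figure D4:**
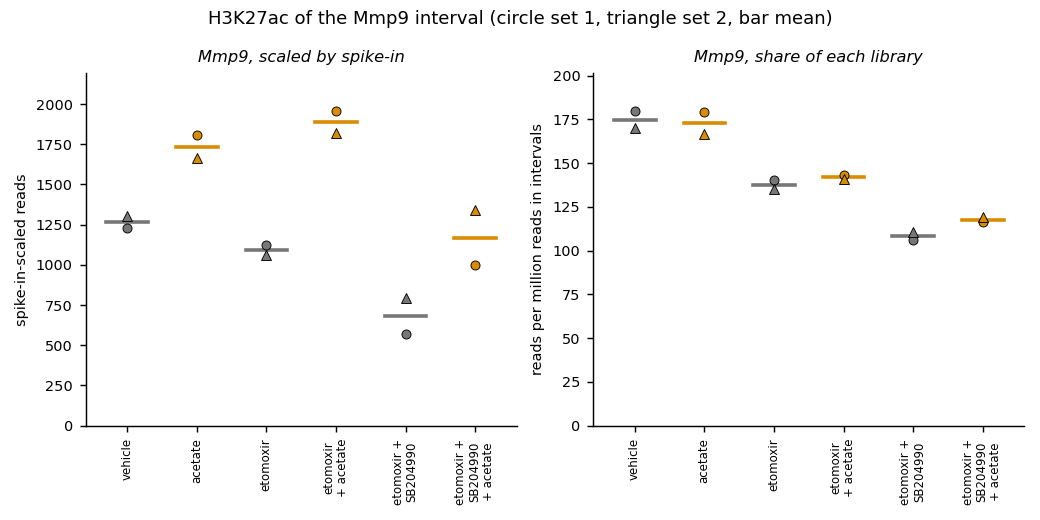
H3K27ac of the Mmp9 interval by treatment (x axis) as spike-in-scaled reads (left) and as reads per 1000000 reads in intervals (right), both from 0; circles are set 1, triangles set 2 and bars the mean. On the right the libraries fall into 3 levels by inhibitor, at 167 to 179.8 without inhibitor, 135 to 143 with etomoxir and 106 to 119 with both, at either acetate state.

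Acetate added to both inhibitors raised Mmp9 by 0.79 ± 0.19 (adjusted p = 0.0065 in the gene fit), to 997 and 1342 scaled reads, which lies on both sides of the vehicle libraries. This call was lost without the library with all 3 compounds of set 2 (0.57), and the change was 1.03 without the etomoxir + SB204990 library of set 2. It was also lost with median-of-ratios scaling (0.16) and with depth-adjusted spike-in scaling (0.37). The comparisons at equal acetate were added after the values were seen. Etomoxir + acetate vs. acetate changed Mmp9 by 0.12 ± 0.19, which turned to -0.39 with median-of-ratios scaling, where 7 of 8 members were negative compared with 0 of 8 with spike-in scaling. In this comparison 0 of 8 member genes were called by limma (0.0771% of all genes, in either direction) and 0 by edgeR. An unadjusted limma p under 0.05 was found for 1 member and for 6334 of all 19458 genes. More of all genes were called when 1 of the etomoxir + SB204990 libraries was left out, though neither is part of this comparison. Etomoxir + SB204990 + acetate vs. acetate changed Mmp9 by -0.58 ± 0.19, with -0.86 in set 1 and -0.31 in set 2. It was -0.37 and -0.80 without the library with all 3 compounds of set 1 and of set 2. Again 0 of 8 genes were called by limma (0.0514% of all genes) and 0 by edgeR. There 1 member had an unadjusted limma p under 0.05, as did 132 of all 19458 genes. The Mmp9 interval was not called there either (limma, adjusted p = 0.896; 0.00156% of all intervals were called lower). Etomoxir + SB204990 vs. vehicle and its counterpart with acetate share no libraries.

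Of 34 listed genes of matrix proteolysis that are no members, 27 had an interval and 26 were tested. In the average acetate effect 25 of 26 were called higher, compared with 88.2% of all genes, with a median change of 0.70 (0.63 over all genes), and Mmp8 was the gene not called (0.40). Acetate added to etomoxir gave 23 of 26 (78.2% of all genes) and acetate added to both inhibitors 14 of 26 (57.7%). Acetate vs. vehicle gave 0, with 12 at an unadjusted limma p under 0.05 (8341 of all 19458 genes). With both other scalings 0 genes were called higher in these acetate comparisons over the whole table. Of the 4 with the highest mean, 3 were Plaur, the urokinase receptor (0.62), Plau, urokinase (0.58), and St14, a membrane serine protease (0.70). In etomoxir + SB204990 vs. vehicle 0 of 26 were called by limma, and the changes ran from -0.44 to 0.30, all above that of Mmp9. There 1 had an unadjusted limma p under 0.05, as did 825 of all 19458 genes.

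With median-of-ratios scaling, the 3 genes whose H3K27ac over the 12 libraries was most like that of the Mmp3, Mmp10 and Mmp13 locus were Dph5 (Pearson r = 0.979), Pank1 (0.972) and Ralyl (0.97), among 15526 symbols with a mean of at least 50. These are descriptions of 12 libraries that share their processing and differ in depth.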

How the data were processed

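H3K27ac ChIP-seq of 4T1 cells with 7.5% human chromatin as spike-in was used. Per the study's methods, the authors processed the reads with nf-core/chipseq on a merged GRCh38 and mm10 genome. How replicates entered interval calling is not given in the sources used here. The deposited signal of each interval was its read count multiplied by the library's spike-in factor, and in 2 libraries, where the factor was 1, the authors' values were raw counts. All 12 value columns were whole multiples of 1 step (100% of values within 0.01), so reads and factors were recovered. The factor multiplies all intervals of a library alike. It was derived from the percentage of human reads, which does not by itself remove differences in depth.

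Values were summed per gene symbol. Genes (19458) and intervals (63903) with a mean of at least 10 were tested with limma 3.58.1 (R 4.3.3) with an intensity trend on log2(scaled value + 1), in 1 fit of 6 group means, with Benjamini-Hochberg adjustment over all features and a threshold of 0.05. The pseudocount of 1 understates changes of low features. The locus was tested by exact permutation. edgeR 4.0.16 on the recovered reads, other scalings, a pseudocount of 5, no filter, set as a block, no intensity trend and leaving out each library were tried. In simulated data the average acetate fit recovered 89.6% of genes and 55.2% of intervals changed by 0.5 (log2). The simulation changed few features, with a fixed spread and exactly known factors. It therefore does not measure errors of the scaling.

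All members were named, with the strongest and the start-nearest interval of each. Members and lists were chosen with earlier results of these data known. Promoters were from RefSeq and gene starts from GENCODE. Nothing states that the 2 libraries of a treatment came from separate cultures, so p-values measure only the spread between libraries, which may be technical. A gene of the proteolysis list and one of the marker lists are not reported here by name.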

Additional observations from a re-analysis of the deposited data

How the results depend on the processing

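The counts of members called (within 1.5 times), and the directions and calls of the 8 genes in the average acetate effect, etomoxir vs. vehicle and etomoxir + SB204990 vs. vehicle, held with a pseudocount of 5, with no filter on low values and with edgeR on the recovered reads. With median-of-ratios scaling and with depth-adjusted spike-in scaling, the members called in the average acetate effect, with acetate added to etomoxir and with acetate added to both inhibitors went to 0 genes and 0 intervals. The Mmp9 interval was no longer called lower in etomoxir + SB204990 vs. vehicle (-0.79 and -0.64, 0 intervals called). Without the intensity trend 0 intervals were called in that comparison (Mmp9 at -0.91) as were 0 for acetate added to both inhibitors. The locus changed with acetate by -0.084 and 0.37 under the other scalings. The scaling is applied to every interval of a library alike; the cause was not tested further.

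With median-of-ratios scaling, the average acetate effect turned to -0.14 for Mmp3, -0.0721 for Mmp13 and -0.0508 for Mmp14. For the Mmp9 interval, acetate vs. vehicle turned to -0.0469, etomoxir + acetate vs. etomoxir to -0.0553 and etomoxir + acetate vs. acetate to -0.39. Etomoxir vs. vehicle turned to -0.0046 for Mmp3, -0.0106 for Mmp13, -0.0566 for Mmp14, -0.0002 for Mmp2 and -0.0694 for Timp2, and etomoxir + SB204990 vs. vehicle to 0.0906 for Mmp10. With depth-adjusted spike-in scaling, etomoxir vs. vehicle turned to -0.0599 for Mmp3, -0.001 for Mmp10, -0.0659 for Mmp13, -0.11 for Mmp14, -0.0554 for Mmp2 and -0.12 for Timp2, and etomoxir + SB204990 vs. vehicle to 0.10 for Mmp3, 0.24 for Mmp10, 0.0513 for Timp2 and 0.0295 for Timp3.

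Leaving out each library in turn, member genes called ranged from 0 to 8 in acetate vs. vehicle, 4 to 8 in etomoxir + acetate vs. etomoxir, 0 to 8 with acetate added to both inhibitors, 0 to 3 in etomoxir + SB204990 vs. vehicle and 0 to 5 in etomoxir + SB204990 vs. etomoxir. Member intervals called ranged from 0 to 14, 5 to 25, 3 to 23, 0 to 3 and 0 to 8 in the same order. With either etomoxir + SB204990 library left out, 76.8% of all intervals were called higher in etomoxir + acetate vs. etomoxir. That share was 56.4% with all 12 libraries. The highest interval counts of the last 3 comparisons were without the etomoxir + SB204990 library of set 2, where 71.6% of all intervals were called higher and 3.92% and 25.1% lower, and the last was 3 without the library with all 3 compounds of set 1 or set 2 (4.18% and 4.16% of all intervals lower). In etomoxir + SB204990 vs. vehicle, the changes ranged from -0.46 to 0.11 for Mmp3, -0.24 to 0.17 for Mmp10, -0.68 to 0.18 for Timp3 and -1.16 to -0.67 for the Mmp9 interval. In etomoxir vs. vehicle they ranged from -0.0072 to 0.20 for Timp2 and -0.36 to 0.0727 for Timp3. Where 1 library of a treatment was left, it was assumed to vary like the others.

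The labels give the sets no more than a shared suffix, and each set had 1 library with a factor of exactly 1. Deviations from the group means correlated between treatments by -0.15 to 0.35 over 15 pairs, and 3 pairs were above 0.1. With set as a replicate block, 5 member genes (20% of all genes) and 2 intervals (3.26% of all intervals) were called in acetate vs. vehicle, 1 gene (Mmp9, limma, adjusted p = 0.0023; 0.0257% of all genes lower) in etomoxir + SB204990 vs. vehicle, and 1 gene (Mmp9, adjusted p = 0.015; 0.257% of all genes lower) and 1 interval (0.0751% of all intervals lower) in etomoxir + SB204990 vs. etomoxir, and no other count moved by over 1.5 times.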
